A study of Mus musculus with 4 samples.

Results

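Collagens and other genes of the dermal matrix were followed in basal epidermal cells sorted from mouse embryos at E16.5. The members were the genes whose platform symbol names a collagen chain, apart from Col7a1 and Col17a1, together with Dcn, Lum, Fmod, Fbn1, Sparc, Postn, Dpt, Vim, Twist1, Twist2, Pdgfra and Pdgfrb. Of the 18193 named genes on the array, 51 were members, 40 of them collagens. Where several probe sets measure a gene, the brightest on average is given. Fbn1 was not analysed here. A filter at the median probe set (a signal of 65.9) kept 11055 genes for testing, and 35 of the 51 members were among them, 24 collagens and all 11 other genes. The member just above that filter was Col20a1 and the member just below it was Col11a1.

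The 4 arrays compared embryos that lack Srf, the gene of serum response factor, in the epidermis with embryos that keep an intact allele. The cKO group (n = 2) was SRF fl/fl, with ROSA26 YFP fl/fl and with K14-Cre. The het group (n = 2) was SRF fl/+, also with ROSA26 YFP fl/fl and with K14-Cre, and the submitters' design text calls it WT, while the strain label of the het samples says Rosa26. Both groups thus carried the Cre, which is driven from the keratin 14 promoter of basal keratinocytes, and the YFP reporter. Cells were sorted for α6 integrin and YFP. The titles het_1210 and Ko_1210 share a number, called the first number below, and het_1261 and KO_1261 share another, called the second. No label says what the numbers mark, or whether a sample came from one embryo or several, so the spread between these samples may be technical. The RNA spike-ins added before labelling were 2.41-fold higher on the array of the first number than on that of the second in het and 2.56-fold higher in cKO, so each gene is also compared within each number. Srf itself had signals of 834 (het_1210), 1108 (het_1261), 47.9 (Ko_1210) and 80.4 (KO_1261). The arrays also differed in sex-linked transcripts. Xist, made from the inactive X, had signals of 62.6, 14338, 115 and 22802 in that order, and the Y-linked Eif2s3y had 1485, 834, 1386 and 3.01, so het_1261 was high in both.

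Collagen chains wind around each other into helices, which assemble outside the cell into fibrils, networks or microfilaments. Dermal fibroblasts make most of the type I, III and VI collagen of skin. The type IV chains and Col18a1 belong to basement membranes, to which basal keratinocytes contribute. Small leucine-rich proteoglycans such as decorin coat collagen fibrils and set their spacing. SRF is known as a regulator of actin cytoskeleton and adhesion genes.

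All differences are cKO minus het on the scale log2(signal + 1). A pair of values in brackets gives the difference within the first number and then within the second. The value after ± beside a difference is the standard error of the limma fit with the number as a block. Since most of that error is borrowed from the other probe sets, a gene whose numbers disagree can still have a small one. Rose and fell are used of genes with an adjusted p under 0.05 in that fit. The fit with the block was set as an alternative to the main fit, which has no block. Without the block 0 of 35 members and 0 of 11055 genes (0% of those tested) passed in limma, and Fmod and Dpt were the members with an unadjusted p under 0.05 (2 of 35, against 0.597% of all tested genes).

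With the block, 4 of the 35 members passed. Col3a1, Vim and Twist2 fell, against 0.615% of all tested genes that fell, and Fmod rose, against 0.253% that rose. With a robust prior or with each array centred on its median, Fmod alone of the 4 passed (adjusted p = 0.00801 and 0.0108), and with a robust prior Col3a1, Twist2 and Vim were at 0.106, 0.142 and 0.301. Without a variance trend none of the 4 passed (adjusted p = 0.736 for Fmod and Twist2 and 0.749 for Col3a1 and Vim). Srf itself did not pass in that setting (adjusted p = 0.169), nor without the block. Failing either of these settings therefore cannot tell a changed gene from an unchanged one, here or below. None of the 4 passed with the tested probe sets of a gene averaged, where Fmod was at 0.69 (adjusted p = 0.585). Fewer cells of a type and less RNA per cell cannot be told apart in these sorted bulk samples. The members' median difference was -0.14 (-0.16 and -0.12), where that of all tested genes was -0.02 (-0.03 and -0.02). The mean difference was below 0 for 21 members (60%, against 53.8% of all tested genes). Within both numbers 19 members were lower, against 31.6% of all tested genes, and 11 were higher, against 24.4%. Both cKO arrays lay below both het arrays for 15 members (42.9%, against 10.9% of all tested genes) and above them for 3 (8.57%, against 8.18%). Pdgfrb counts among the 19 and the 15, although het_1261 and KO_1261 were both at 110 for it after rounding. Centring each array on its median moved the median of all genes from -0.02 to 0.10 and left 12 members below (4% of all genes) and 7 above (18.1%).

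**Figure D1:**
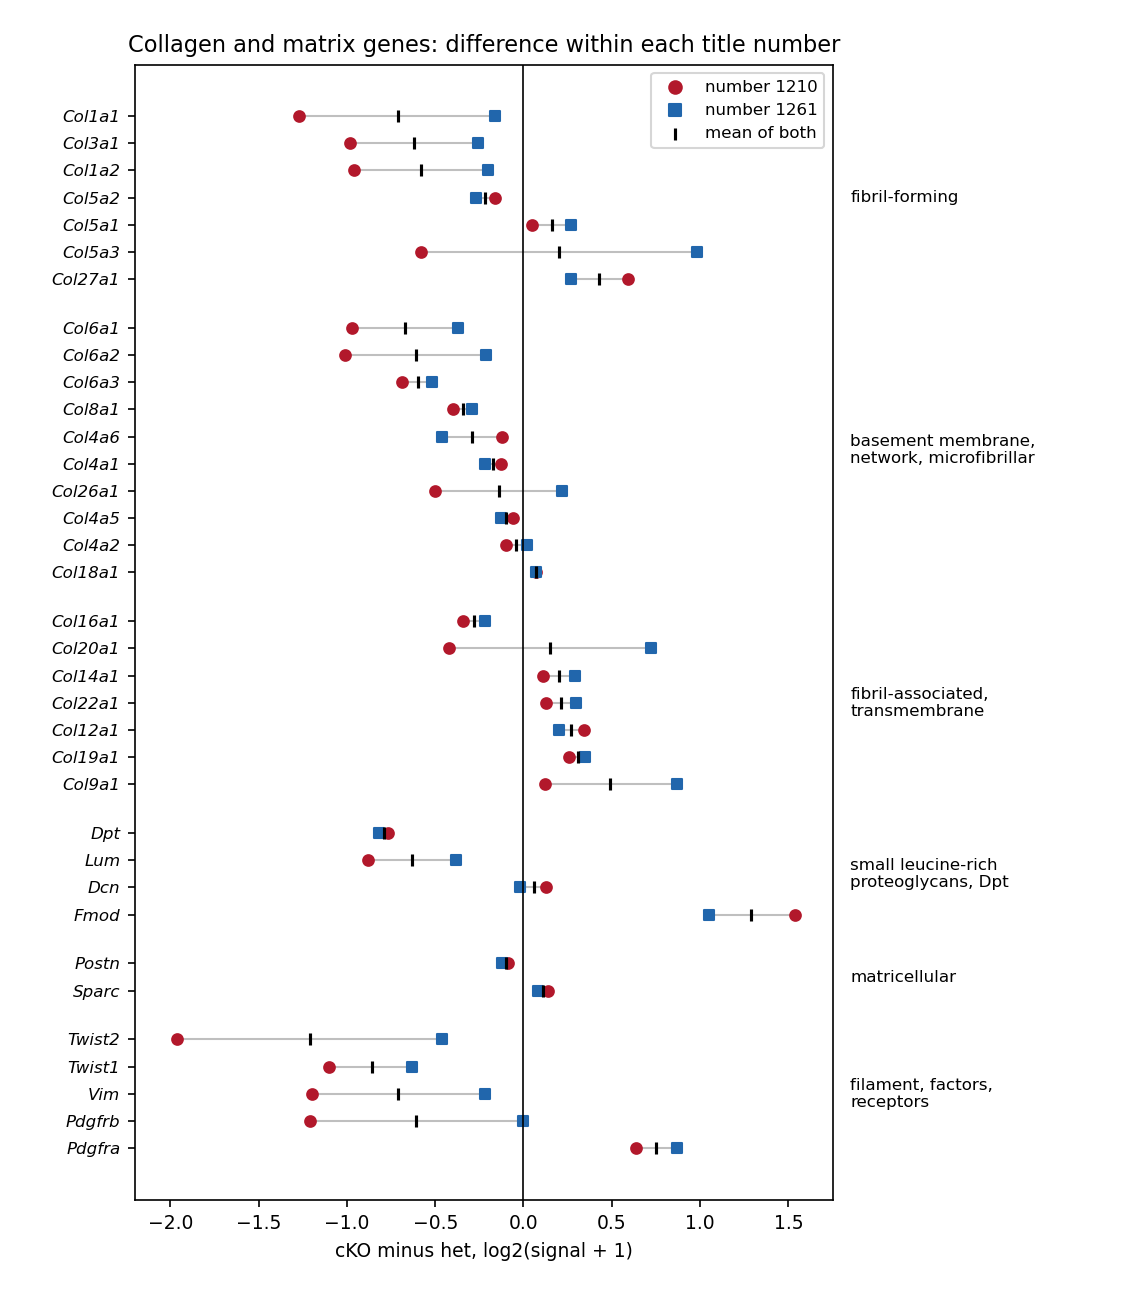
Difference between cKO and het for the 35 tested members on the log2(signal + 1) scale (x axis), grouped by role. Circles give the first number (het_1210 and Ko_1210), squares the second (het_1261 and KO_1261) and ticks their mean. Col1a1, Col3a1, Vim and Twist2 lie farther to the left in the first number than in the second, while Dpt, Fmod and Pdgfra lie on the same side by similar sizes in both.

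The 5 promoters below belong to the 4 genes that passed with the block and to Col1a2, the second chain of type I collagen. They are shown so that these 5 genes can be compared by sequence. Each is the stretch of 250 bases before the RefSeq start (build GRCm38.p6), 5′ to 3′ on the gene's strand, and capitals mark CCAAT and TATAA on either strand. The windows lie at chr6:4505368-4505617 (plus strand) for Col1a2, chr1:45311288-45311537 (plus strand) for Col3a1, chr2:13574061-13574310 (plus strand) for Vim, chr1:91801211-91801460 (plus strand) for Twist2 and chr1:134037004-134037253 (plus strand) for Fmod.
Col1a2: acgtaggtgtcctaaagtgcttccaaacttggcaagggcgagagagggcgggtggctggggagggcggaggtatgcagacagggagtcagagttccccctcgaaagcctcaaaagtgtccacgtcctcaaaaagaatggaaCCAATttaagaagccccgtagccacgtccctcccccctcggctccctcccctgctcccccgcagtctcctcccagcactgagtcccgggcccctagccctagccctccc
Col3a1: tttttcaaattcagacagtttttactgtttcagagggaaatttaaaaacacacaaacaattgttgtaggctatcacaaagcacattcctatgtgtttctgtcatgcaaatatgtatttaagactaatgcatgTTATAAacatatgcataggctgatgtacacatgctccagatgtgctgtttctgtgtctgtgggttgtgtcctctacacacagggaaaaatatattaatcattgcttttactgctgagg
Vim: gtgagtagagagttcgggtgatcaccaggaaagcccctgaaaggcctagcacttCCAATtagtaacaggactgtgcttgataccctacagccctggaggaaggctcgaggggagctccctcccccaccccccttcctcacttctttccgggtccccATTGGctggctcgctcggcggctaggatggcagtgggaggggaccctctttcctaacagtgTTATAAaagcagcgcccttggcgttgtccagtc
Twist2: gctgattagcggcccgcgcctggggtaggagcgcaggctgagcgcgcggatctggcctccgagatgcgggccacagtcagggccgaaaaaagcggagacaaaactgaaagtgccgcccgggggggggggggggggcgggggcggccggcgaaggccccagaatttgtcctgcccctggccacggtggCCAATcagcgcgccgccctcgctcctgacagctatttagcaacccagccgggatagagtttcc
Fmod: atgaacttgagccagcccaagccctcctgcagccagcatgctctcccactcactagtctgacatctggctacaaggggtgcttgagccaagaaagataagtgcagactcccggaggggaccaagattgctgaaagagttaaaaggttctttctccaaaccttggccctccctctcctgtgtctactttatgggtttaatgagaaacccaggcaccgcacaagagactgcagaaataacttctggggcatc
In these windows Col1a2 and Twist2 have 1 CCAAT each, starting at -109 and -63 from the start site. Vim has 2, at -196 and -94, and a TATAA at -32 that overlaps a match on the other strand. Col3a1 has a TATAA of the same kind at -117 and no CCAAT, and Fmod has neither motif. RefSeq windows were found for 39 of the 51 members, 43 windows in all. CCAAT was in 32.6% of them, against 33.8% of all 32851 promoters of that length, and TATAA in 20.9% against 22.8%. The E-box CANNTG, the kind of site that Twist proteins bind, was in 48.8% against 66.2%, and GGGCGG, the core of the Sp1 site, in 51.2% against 32.7%. The CArG box, the site of SRF, was in 2.33% against 1.47%, that is in the window of Col6a4, which is below the filter, and in 0 of the 26 tested members with a window. All 5 motifs were searched on both strands, and a match is a description of the letters.

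Type I and type III collagen, the main fibrils of the dermis, were lower in cKO, by more within the first number than within the second. Col1a1, a chain of type I collagen, had signals of 1864 on het_1210, 1139 on het_1261, 775 on Ko_1210 and 1022 on KO_1261. The groups did not overlap, and the difference was -0.71 ± 0.20 (-1.27 and -0.16; adjusted p = 0.087 with the block). Col1a2, its partner chain, had signals of 6479, 5840, 3320 and 5101 in the same order, a difference of -0.58 ± 0.16 (-0.96 and -0.20; adjusted p = 0.0702). Col3a1, the chain of type III collagen, fell by 0.62 ± 0.15 (-0.98 and -0.26; adjusted p = 0.0301), from 10543 and 7811 in het to 5335 and 6520 in cKO. For all 3 genes Ko_1210 was the lowest array and het_1210 the highest, so the gap was 2.4-fold, 1.95-fold and 1.98-fold within the first number and 1.11-fold, 1.14-fold and 1.2-fold within the second.

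The minor fibril-forming chains had smaller or opposite differences, and the contrast with types I and III was not tested. Col5a2, which lies beside Col3a1 on the chromosome with no other protein-coding gene between, had signals of 2658 and 2989 in het and 2376 and 2480 in cKO. Its groups did not overlap, and the difference was -0.22 ± 0.15 (-0.16 and -0.27). Col5a1, the other common chain of type V collagen, was at 1985 and 1644 in het and 2062 and 1978 in cKO, a difference of 0.16 ± 0.16 with higher values within both numbers. Col27a1, a fibril chain of cartilage and developing tissues, was at 0.43 ± 0.18 (0.59 and 0.27), with overlapping groups (706, 1245, 1066 and 1501) and a range of 0.02 to 0.84 with 1 array left out. Col5a3 had opposite signs within the numbers (-0.58 and 0.98) from signals of 57.8 to 134. None of these 4 passed, with adjusted p from 0.405 for Col27a1 to 0.943 for Col5a3.

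Type VI collagen forms beaded microfilaments around cells, and its 3 tested chains were lower by like amounts. Col6a1 had signals of 738 and 608 in het and 377 and 471 in cKO, a difference of -0.67 ± 0.21 (-0.97 and -0.37). Col6a2, the neighbour of Col6a1 on the chromosome, had 1071 and 922 in het and 530 and 796 in cKO, or -0.61 ± 0.20 (-1.01 and -0.21). Col6a3 had 809 and 874 in het and 500 and 610 in cKO, or -0.60 ± 0.19 (-0.69 and -0.52). In each case both cKO arrays lay below both het arrays, and none passed over all genes (adjusted p = 0.16, 0.182 and 0.175 with the block). Col8a1, a short-chain network collagen, was also lower on both cKO arrays (513 and 581 in het, 388 and 477 in cKO), at -0.34 ± 0.21.

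Basement membrane collagens had small differences. Col4a1 was at -0.17 ± 0.15 with 4999 and 3818 in het and 4581 and 3270 in cKO, and its neighbour Col4a2 at -0.04 ± 0.17. The other neighbouring pair, Col4a5 and Col4a6, was at -0.10 ± 0.14 and -0.29 ± 0.20, the latter with a range of -0.58 to -0.01 with 1 array left out. Col18a1, whose cleaved end is endostatin, was at 0.07 ± 0.15 (0.07 and 0.07). Col26a1, a minor collagen, had opposite signs within the numbers (-0.50 and 0.22), with signals of 118 and 55.8 in het and 83.1 and 65.4 in cKO and a mean of -0.14 ± 0.48 (adjusted p = 0.967). On these brightest probe sets the groups of the type IV chains and Col18a1 overlapped, and their adjusted p with the block ran from 0.721 to 0.972. A second probe set of Col4a5 was at -0.26 ± 0.16, and its groups did not overlap. That of Col4a1 was at -0.28 ± 0.20 (-0.76 and 0.20). Under median centring Col4a2 and Col4a5 turned to 0.08 and 0.03. Col4a5 and Col4a6 are X-linked, and the part of the Xist difference between arrays in their values was not tested. Col7a1, the anchoring fibril collagen, and Col17a1, the hemidesmosome collagen, which the rule leaves out, were at -0.07 ± 0.14 and 0.09 ± 0.13.

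Most tested collagens that sit on fibrils had small differences above 0. The membrane-spanning Col13a1, Col23a1 and Col25a1 lay below the filter and were not tested. Of the 7 tested, 6 had a mean difference above 0 and 5 were higher within both numbers, with a median of 0.21 (0.12 and 0.30). Of all tested genes 53.8% had a mean below 0, and 24.4% were higher within both numbers. With 1 array left out the differences of Col12a1, Col19a1, Col20a1 and Col22a1 spanned 0. Col12a1, which bridges type I fibrils, had signals of 1311 and 2108 in het and 1658 and 2420 in cKO, or 0.27 ± 0.16 (0.34 and 0.20). Col14a1, a close relative, had 520 and 548 in het and 562 and 670 in cKO, or 0.20 ± 0.20, and its groups did not overlap. Col16a1, found at the dermal-epidermal junction, was the exception, with 1125 and 901 in het and 889 and 776 in cKO, or -0.28 ± 0.18 (-0.34 and -0.22). The remaining 4, Col9a1, Col19a1, Col20a1 and Col22a1, had signals between 48.7 and 123 and differences from 0.15 to 0.49. The 7 had adjusted p from 0.662 to 0.967 with the block.

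**Figure D2:**
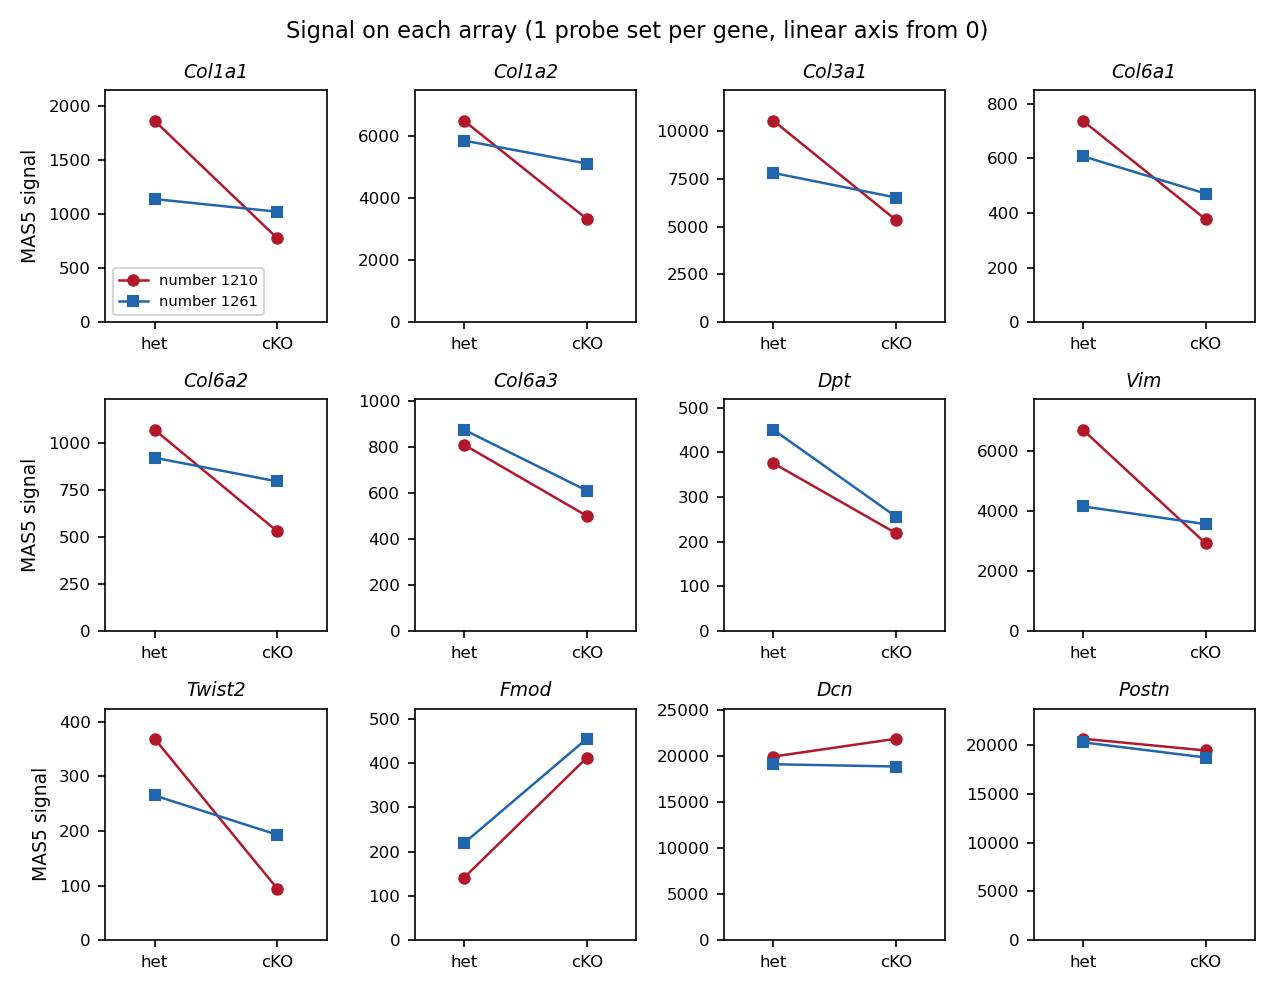
MAS5 signal (y axis, linear from 0) on the het and cKO arrays for 12 members, with a line joining the arrays that share a title number (circles het_1210 and Ko_1210, squares het_1261 and KO_1261). The lines of Col1a1, Col1a2, Col3a1, Col6a1, Col6a2, Vim and Twist2 cross, since het_1210 is the highest and Ko_1210 the lowest array. Those of Col6a3, Dpt and Fmod do not cross, and those of Dcn and Postn are nearly flat.

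Among the proteins that coat collagen fibrils, fibromodulin rose on its brightest probe set, while dermatopontin was lower by like amounts within both numbers without passing. Dpt, which binds decorin and speeds fibril assembly, had signals of 376 and 451 in het and 219 and 256 in cKO. It was 1.71-fold lower within the first number and 1.76-fold lower within the second, a difference of -0.79 ± 0.24 (unadjusted p = 0.0498 without the block, adjusted p = 0.121 with it). Fmod, a keratan sulfate proteoglycan that binds type I collagen, rose from 141 and 219 in het to 412 and 455 in cKO, a difference of 1.29 ± 0.25 (1.54 and 1.05; adjusted p = 0.0038). Its 2 cKO arrays exceeded both het arrays by more than 1.5-fold, as in 0.0633% of all tested genes. These values are those of the brightest of 6 tested probe sets. The other tested probe sets of Fmod did not pass, and 1 of them had opposite signs within the numbers (-0.77 and 3.09). With all of them averaged Fmod was at 0.69. Lum, the related proteoglycan lumican, had 549 and 885 in het and 297 and 681 in cKO, or -0.63 ± 0.21 (-0.88 and -0.38; adjusted p = 0.188). The groups overlapped, and with 1 array left out the difference of Lum ranged from -1.23 to -0.03. Dcn, decorin, lies beside Lum on the chromosome and was at 0.06 ± 0.12, with 19907 and 19073 in het and 21841 and 18828 in cKO.

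The abundant matricellular genes had small differences. Postn, periostin, which binds collagen and integrins, had signals of 20660 and 20294 in het and 19454 and 18733 in cKO. The groups did not overlap, but the difference was -0.10 ± 0.12, and it was 0.02 under median centring. Sparc, a collagen-binding glycoprotein made by fibroblasts and by other cells, was at 0.11 ± 0.13, with 14207 and 11165 in het and 15672 and 11781 in cKO. The adjusted p with the block was 0.883 for Postn and 0.876 for Sparc.

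Of the general mesenchymal genes, 4 of 5 had a mean difference below 0, against 53.8% of all tested genes. Vim, the intermediate filament of mesenchymal cells, fell by 0.71 ± 0.17 (-1.20 and -0.22; adjusted p = 0.0249), from 6708 and 4156 in het to 2924 and 3564 in cKO. Twist2, a transcription factor of the dermis that binds E-boxes, fell by 1.21 ± 0.31 (-1.96 and -0.46; adjusted p = 0.0451), from 369 and 265 to 94.1 and 193. Its relative Twist1 had 133 and 85.3 in het and 61.5 and 54.9 in cKO, the last 2 below the filter, or -0.86 ± 0.47. The PDGF receptors, which drive fibroblast growth, had differences of opposite sign. Pdgfrb, which also marks pericytes, had 192 on het_1210 and 82.1 on Ko_1210, and 110 on both arrays of the second number, so its difference of -0.61 ± 0.39 came from the first number alone (-1.21 and 0). Pdgfra had 58.3 and 84.4 in het and 91.2 and 155 in cKO, or 0.75 ± 0.43 (0.64 and 0.87). Neither passed (adjusted p = 0.683 and 0.639).

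The disagreement between the numbers can be read from single arrays. Within the first number 12 members were more than 1.5-fold lower in cKO (34.3%, against 9.14% of all tested genes), and within the second this held for 2, Dpt and Twist1 (5.71%, against 5.18%), which were the members past this fold in both (5.71%, against 1.65%). More than 1.5-fold higher were 3 members within the first number (8.57%, against 6.92%) and 5 within the second (14.3%, against 2.08%), of which Col5a3, Col9a1, Col20a1 and Pdgfra had an array at or below the filter. Fmod and Pdgfra were past this fold in both (5.71%, against 0.344%), Pdgfra with het_1210 below the filter. Ko_1210 was the lowest array for 14 members, and for 13.7% of all tested genes. For 8 of these, Col1a1, Col1a2, Col3a1, Col6a1, Col6a2, Pdgfrb, Twist2 and Vim, het_1210 was also the highest array, as it was for 5.25% of all tested genes. With 1 array per group and number, the difference between the numbers could not be tested. With 1 array left out and no block, differences were -1.07 to -0.36 for Col1a1, -0.84 to -0.41 for Col3a1 and -1.05 to -0.36 for Vim. They were -1.72 to -0.69 for Twist2, -0.93 to -0.66 for Dpt and 0.98 to 1.61 for Fmod. The groups of these genes did not overlap, so their signs could not change and the ranges show size only.

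**Figure D3:**
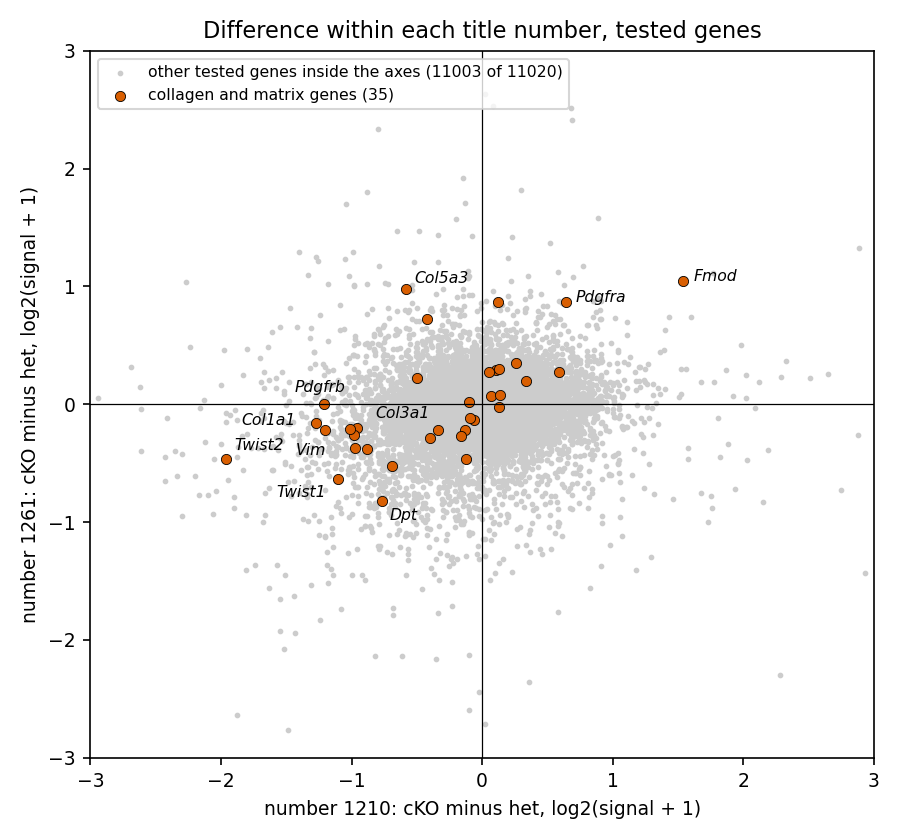
Difference between cKO and het within the first number (x axis, het_1210 and Ko_1210) and within the second (y axis, het_1261 and KO_1261) on the log2(signal + 1) scale, for the 35 members (orange) and the other tested genes (grey; those beyond 3 on either axis are not drawn). The 8 members that were highest on het_1210 and lowest on Ko_1210 lie between -1.96 and -0.96 on the x axis and between -0.46 and 0 on the y axis, and Fmod lies at 1.54 and 1.05.

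Where a gene had several tested probe sets, these mostly gave the same sign. Of 19 such members, all probe sets were below 0 in 10 and above 0 in 7, and Dcn was mixed (0.06 and -0.51). Col14a1 had a second probe set at 0. The 3 probe sets of Vim differed by -0.71, -0.58 and -0.78, with adjusted p = 0.0249, 0.106 and 0.00806 with the block. The second probe set of Col1a2 was at -0.74 ± 0.17 and passed with the block (adjusted p = 0.0224), while that of Col3a1, at -0.37 ± 0.19, did not (0.545). The 6 probe sets of Fmod ranged from 0.17 to 1.29. The one that passed is of the kind marked x, whose probes may also match other transcripts, and the probe set without that mark was at 0.38 ± 0.34 (0.36 and 0.41), with 123 and 113 in het and 158 and 151 in cKO. When all tested probe sets of a gene were averaged, 0 members passed with the block.

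**Figure D4:**
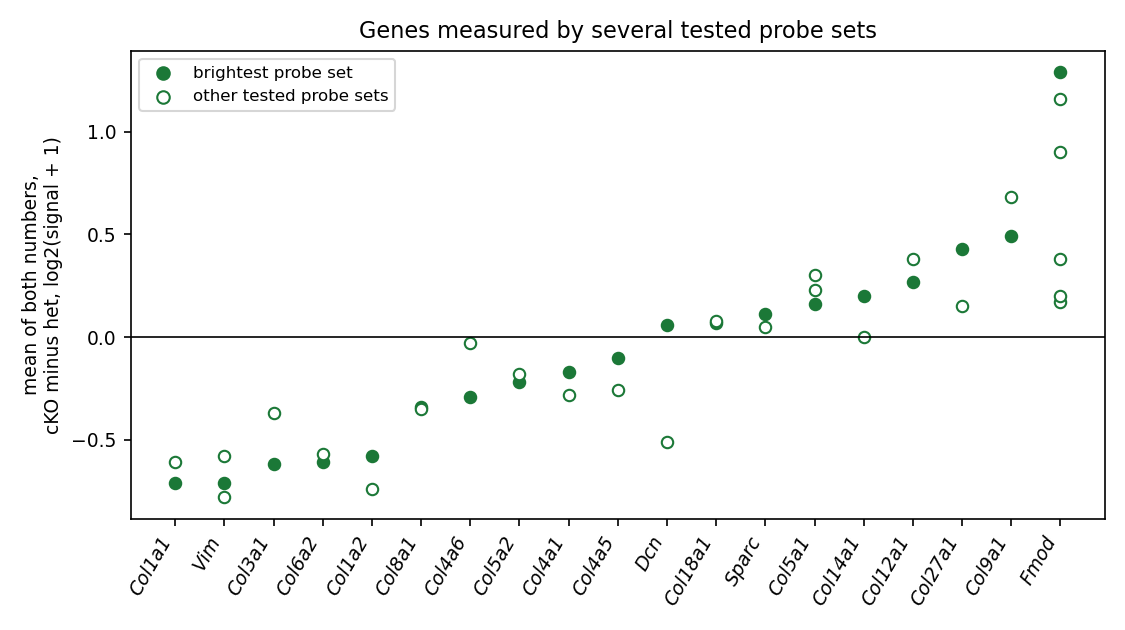
Mean difference between cKO and het over both numbers on the log2(signal + 1) scale (y axis) for each tested probe set of the 19 members that have several (x axis). Filled points are the brightest probe set. The points of Vim, Col1a1 and Col1a2 lie together below 0, while those of Fmod spread from 0.17 to 1.29.

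The other 16 members lay below the filter and were not tested. All are collagens, namely Col2a1, Col9a2, Col9a3, Col10a1, Col11a1 and Col11a2 of cartilage, Col4a3 and Col4a4 of kidney basement membrane, and Col6a4, Col6a5, Col8a2, Col13a1, Col15a1, Col23a1, Col24a1 and Col25a1. Their signals ran from 0.776 to 120, and 6 of the 64 values lay above the filter. Of the 16, 5 were lower within both numbers (Col9a2, Col10a1, Col11a1, Col23a1 and Col24a1), and both cKO arrays lay below both het arrays for these. Another 6 were higher within both, and of them Col6a4 (21.5 and 6.78 in het, 63.1 and 63.0 in cKO), Col8a2 and Col25a1 had groups that did not overlap. The remaining 5 had opposite signs. Ratios at such signals are imprecise, and no fold is given. No share over all genes below the filter was computed, so these counts describe the values and have no background beside them.

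Basal keratinocyte markers were bright on all arrays (Krt5 at 57958, 36834, 50933 and 35314 on het_1210, het_1261, Ko_1210 and KO_1261). Of 9 tested fibroblast markers outside the members, of 10 listed, 7 were lower in cKO and 2 higher, with a median of -0.36 (-0.11 and -0.24) and a summed signal of 8821 and 11645 in het and 11056 and 10336 in cKO. The largest share of that sum was Snai2 (5558, 6836, 7107 and 5188), which keratinocytes also express. None passed with the block. The mesenchymal transcription factors Zeb1 and Zeb2 were at -0.92 ± 0.53 and -0.39 ± 0.49, and Thy1, a surface protein of fibroblasts, at 0.43 ± 0.17. The lists for endothelium, for pericytes and smooth muscle and for melanocytes had medians below 0, with smaller differences within the second number. There Kdr, Esam, Des, Pmel and Mitf were higher in cKO (0.03, 0.21, 1.29, 0.51 and 0.14), and the other tested genes of these lists were lower. Of all tested genes 53.8% had a mean below 0. All 5 tested of 7 endothelial markers, all 4 of 7 for pericytes and smooth muscle and all 4 of 7 for melanocytes had a mean below 0, with medians of -0.35 (-0.77 and -0.15), -0.44 (-0.69 and -0.18) and -0.37 (-0.86 and -0.02), and 0 of these 13 passed. Among them were Cdh5 of endothelium (-0.55 ± 0.49), Cspg4, Rgs5 and Notch3 of pericytes (-0.64 ± 0.27, -0.47 ± 0.36 and -0.41 ± 0.20) and Dct and Kit of melanocytes (-0.73 ± 0.26 and -0.41 ± 0.42). With the tested probe sets of a gene averaged, Cspg4 was at -0.20 and Notch3 at -0.19, while the other markers just named kept their values. The summed signals of the endothelial, pericyte and melanocyte lists on Ko_1210 were 385, 865 and 592, against 590, 1406 and 1186 on het_1210, and on KO_1261 459, 959 and 635, against 495, 1056 and 633 on het_1261. Of the 7 immune markers Laptm5 alone was tested, and it fell by 1.47 ± 0.36 (-2.17 and -0.77; adjusted p = 0.0367), from 267 and 195 to 58.5 and 114. That call was lost with a robust prior (adjusted p = 0.0682), under median centring (0.124) and without a variance trend (0.736), and the mean of the tested probe sets of Laptm5 was -0.43 (0.774). Of 4 tested adipocyte markers all were lower and Fabp4, a fatty acid binding protein also found in capillaries, fell by 1.19 ± 0.21 (-1.83 and -0.56; adjusted p = 0.00174), with 791 and 2024 in het and 222 and 1373 in cKO, a call lost with a robust prior (0.225) and without a variance trend (0.736). No signal in the table was exactly 0, and the defining markers Pecam1, at 10.5 to 44, and Ptprc, at 23.5 to 35.7, lay below the filter on all arrays. The 1 tested Schwann cell marker, Erbb3, which keratinocytes also express, was at 0.23 (0.24 and 0.23). The cartilage and skeletal muscle lists had 2 tested genes each and medians of 0.27 and 0.20. The part of other cell types in the values of the members was not tested.

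The machinery that makes and matures collagen was examined in lists of genes outside the members. In the endoplasmic reticulum, where chains are hydroxylated and folded, 12 of 18 tested genes were below 0 (against 53.8% of all tested genes) and 6 above, with a median of -0.09, and 0 passed. Serpinh1, the collagen chaperone HSP47, was at -0.27 ± 0.14 and the prolyl hydroxylase subunit P4ha2 at -0.36 ± 0.21, while Mia3, which helps load procollagen into transport carriers, was at 0.50 ± 0.19 and the prolyl hydroxylase P3h2 at 0.20 ± 0.19. With its tested probe sets averaged Mia3 was at 0.21. Outside the cell, all 4 tested genes of procollagen processing and crosslinking were lower, with a median of -0.72 (-0.97 and -0.44). Pcolce, which enhances the cleavage of the procollagen C-terminal propeptide, fell by 0.98 ± 0.25 (-1.56 and -0.39; adjusted p = 0.0423), from 503 and 540 in het to 170 and 413 in cKO. The call of Pcolce was lost with a robust prior (adjusted p = 0.125), under median centring (0.162), without a variance trend (0.736) and with averaged probe sets (0.178). Bmp1, the protease it assists, was at -0.51 ± 0.19 (-0.52 and -0.50), the crosslinking enzyme Loxl1 at -0.86 ± 0.36 (-0.86 and -0.87) and Lox at -0.57 ± 0.29 (-1.09 and -0.06), and these 3 did not pass.

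In the elastic fibre and microfibril list 10 of 11 tested genes were below 0, with a median of -0.30 (-0.68 and -0.05) and none past the threshold. Of all tested genes 53.8% were below 0, the share to set beside the counts of this paragraph. Fbln1, Ltbp3 and Fbln2 were at -0.01, -0.02 and -0.06, and at 0.11, 0.11 and 0.06 under median centring. Within the second number Fbln1, Fbln2, Mfap2, Mfap5 and Ltbp1 were higher in cKO. Both cKO arrays lay below both het arrays for Eln, the gene of elastin (-1.01 ± 0.39), for the fibrillin gene Fbn2 (-0.76 ± 0.24; 411 and 405 in het, 227 and 257 in cKO) and for Fbln5 (-1.0 ± 0.52). Among other matrix glycoproteins and proteoglycans 12 of 15 were below 0, with a median of -0.29 (-0.37 and -0.30), and 0 passed. The 3 with the largest differences among those whose groups did not overlap were Aspn (-0.91 ± 0.31), Tnxb (-0.71 ± 0.45) and Vcan, the large proteoglycan versican (-0.68 ± 0.19; 762 and 1045 in het, 502 and 619 in cKO; adjusted p = 0.0955). With tested probe sets averaged, Aspn was at -0.67 and Vcan at -0.39. Of 10 matrix proteases and inhibitors 7 were below 0 and 0 passed. Mmp2, a gelatinase made by fibroblasts, was at -0.65 ± 0.22 and Timp2 at -0.59 ± 0.26, while Mmp11 was at 0.57 ± 0.25. The lists of receptors and growth factor signalling had medians above 0. They were 0.18 for 3 collagen receptors, 0.13 for 12 genes of TGF-beta signalling and 0.13 for 3 PDGF ligands. Of these 18 genes 0 passed. The receptor median is the value of Ddr1, which was at -0.43 with its tested probe sets averaged. Smad3 and Ski were at 0.27 ± 0.17 and 0.20 ± 0.17, and the inhibitory Smad7 at -0.40 ± 0.25, or -0.04 with its tested probe sets averaged. In the TGF-beta list 8 genes were above 0 and 4 below. Of its ligands, Tgfb1 was at 0.03 ± 0.24, Tgfb2 at -0.72 ± 0.35 (-1.58 and 0.14) and Tgfb3 at -0.88 ± 0.29 (-1.12 and -0.65). Pdgfa, the epidermal ligand of Pdgfra, was at 0.25 ± 0.13 with 10058 and 8897 in het and 12459 and 10160 in cKO, and Pdgfb at -0.25 ± 0.25.

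**Figure D5:**
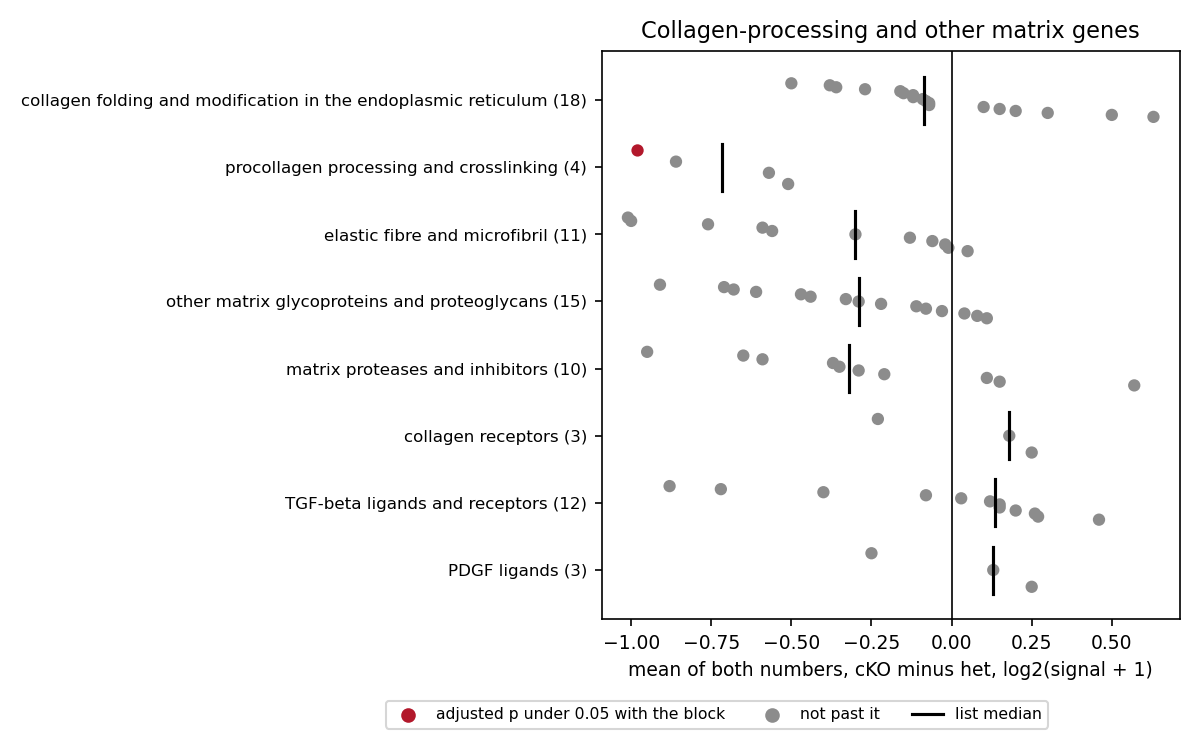
Mean difference between cKO and het on the log2(signal + 1) scale (x axis) for the tested genes of 8 lists around the collagens (y axis, number of tested genes in brackets). Each point is a gene and each bar a list median; Pcolce, at -0.98, is the only gene drawn as past the threshold with the block.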

How the data were processed

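Total RNA of 4 sorted samples (2 per group) was hybridised to 1-colour arrays. The deposited values are linear intensity values for each probe set. MAS5 is the tool named in the submitters' processing notes, with the version not given in the sources used here. On all 4 arrays their mean, with 2% trimmed at each end, was 500, so only changes relative to that mean show, and values near background are noisy. The number of arrays limits the precision. From 45101 probe sets, 64 controls were left out. Platform symbols were updated by Entrez identifier (34741 of 34945 probe sets with 1 symbol matched), and 932 probe sets with several symbols and 9160 with none were tested unnamed.

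Values were taken as log2(signal + 1), and the 22518 probe sets above the median were fitted with limma 3.58.1 in R 4.3.3 (eBayes with a variance trend, two-sided, Benjamini-Hochberg over all tested probe sets, threshold 0.05). The fit without a block had 2 residual degrees of freedom. A second fit took the title number as a block, with 1 residual degree of freedom and 34.4 prior ones. The number is taken as a block because the spike-ins differ between the numbers. Those of hybridization were also higher on the first number, 1.99-fold in het and 1.73-fold in cKO. Xist differed between the numbers as well, and no label calls the number a batch. Deviations of same-numbered arrays from their group means correlated at 0.755, which with 2 pairs and no label does not show that the numbers pair animals. The fit was tested on simulated data.

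The members and lists were chosen with earlier results of these data known. Every tested member was described, with all 4 values where groups did not overlap or a fit called the gene, and members below the filter were given by name, range and counts. Other list genes were named where called with the block, or as the 3 largest differences among those with groups that did not overlap. Serpinh1, Lox, Krt5, Snai2, Erbb3, Pecam1, Ptprc, Tgfb1, Tgfb2 and Tgfb3 were chosen after their values were seen. Promoters came from RefSeq (GRCm38.p6), and figures were drawn with matplotlib 3.10.9.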

Additional observations from a re-analysis of the deposited data

How the results depend on the processing

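With 2 arrays per group and the numbers apart, calls rested on the variance model. Against 0 genes and 0 members without a block, the replicate block gave 96 genes and 4 members, with a robust prior 50 and 1 (Fmod), with median centring 52 and 1 (Fmod), with quantile normalization 150 and 6 (Col1a1 and Col1a2 joining), and without a variance trend 0 and 0. Srf itself did not pass without a block, nor with the block and no variance trend (adjusted p = 0.169). Chosen after seeing the data, the block with averaged probe sets gave 40 genes and 0 members, and the block without a filter 8 genes and 0 members. Without 1 array, and with no block, 0 to 2 genes and 0 members passed.

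The members' median of -0.14 was -0.02 under median centring, with or without the block, where that of all tested genes was 0.10, so that the gap to all genes stayed at -0.11. It was -0.09 under quantile normalization (with or without the block), -0.10 with no filter (51 members, with or without the block), -0.22 with the upper quartile filter (23 members) and -0.18 with averaged probe sets (with or without the block). It ranged from -0.26 to -0.04 with 1 array left out. The count of tested members below 0 was 21, with 18 under median centring and 19 to 26 with 1 array left out. Centring lowered the share of all tested genes below 0 from 53.8% to 33.3%.

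Of 35 tested members, 22 kept their sign under every setting run. Where the groups did not overlap, leaving out 1 array could not change the sign. Under median centring, with or without the block, Col4a5 turned to 0.03, Col4a2 to 0.08 and Postn to 0.02. With averaged probe sets Dcn turned to -0.23 (with or without the block). With 1 array left out the values spanned 0 for Col4a1 (-0.42 to 0.07), Col4a2 (-0.28 to 0.19), Col4a5 (-0.21 to 0.01), Col5a3 (-0.40 to 0.80), Col12a1 (-0.07 to 0.61), Col18a1 (-0.06 to 0.20), Col19a1 (-0.04 to 0.66), Col20a1 (-0.26 to 0.56), Col22a1 (-0.07 to 0.50), Col26a1 (-0.67 to 0.40), Dcn (-0.05 to 0.16) and Sparc (-0.10 to 0.32). The cause was not tested. Signal over background limits Twist1, Pdgfra, Col5a3, Col9a1, Col19a1, Col20a1 and Col26a1, each with an array at or below the filter.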
